A study of Mus musculus with 30 samples.

Results

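The 9 genes described here encode ATP-binding cassette (ABC) transporters of the brain endothelium: the efflux pumps Abcb1a, Abcb1b and Abcg2, the multidrug resistance proteins Abcc1, Abcc4, Abcc5 and Abcc6, and the sterol exporters Abca1 and Abcg1. They were taken by name from the 48795 genes counted, and all 9 were among the 16844 genes with enough counts to test. RNA was sequenced from primary brain endothelial cells of untreated wild-type mice (Mus musculus) aged 2, 6, 12, 18 and 24 months. Each age had 6 libraries, 3 from females and 3 from males, which makes 30. The study regressed expression on age after correcting for sex. The sources used here do not give how the cells were isolated or whether mice were pooled, so the spread within an age may describe pools.

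ABC transporters use the energy of ATP hydrolysis to move substrates across membranes. At the blood-brain barrier, P-glycoprotein (made from Abcb1a and Abcb1b in mice) and the breast cancer resistance protein (made from Abcg2) face the blood and return drugs and other foreign compounds to it. The Abcc proteins export organic anions and conjugates, and Abca1 and Abcg1 pass cholesterol and phospholipid to lipoprotein particles.

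Gene counts per library ranged from 24140980 to 50464366, so that 3 counts, the most that a count of 0 allows, corresponded to 0.0594 to 0.124 CPM (counts scaled to a common library total). Such limits cover counting error only. Markers of endothelial cells summed to 15241 to 20505 CPM over 10 genes and 30 libraries. Markers of other cells were present too, with 240 to 1321 CPM over 10 astrocyte genes and 380 to 1214 CPM over 10 pericyte genes. Microglia gave 174 to 1319 CPM over 8 genes, and choroid plexus and ependyma gave 167 to 7062 CPM over 10. Oligodendrocytes gave 596 to 2391 CPM over 8 genes and erythroid cells 219 to 2732 CPM over 6. Fibroblasts gave 222 to 1097 CPM and smooth muscle 80.7 to 640 CPM over 8 genes each. Neurons gave 30.3 to 45.2 CPM over 8 genes at 2 months and 54.4 to 159.7 CPM at the later ages. Border macrophages gave 37.9 to 61.2 CPM over 8 genes at 2 months and 61.2 to 90.1 CPM at 18 months. Of 10 choroid plexus markers, 6 fell with age. Of 10 pericyte markers, 4 rose. Among 10 astrocyte markers, 3 fell and 1 rose. Among 10 endothelial markers, 1 rose and 1 fell. Of 8 neuron markers 1 rose and 0 fell, and of 8 border macrophage markers 0 were called. These counts stand beside 10.9% of all genes called on the slope with age. Reads outside genes made up 10.4 ± 2.13% at 18 months, against 5.06 ± 0.97% at 2 months (SD, n = 6 each), and ranged from 3.82 to 13.1% over all libraries. The 3 female 18-month libraries had the highest share of counts from genes longer than the median (58.8 to 61.1%), and the 3 female 6-month libraries (44.3 to 47.6%) and 1 male 12-month library (46.6%) had low shares. The part of these differences in the results below was not tested except where a value is given.

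Abcb1a and Abcb1b are neighbouring copies of 1 ancestral gene on chromosome 5, at chr5:8660077-8748575 and chr5:8798147-8866315 (GRCm38, plus strand), 49571 bases apart. Their coding sequences were 88.1% identical over 3819 aligned bases, with a longest identical run of 338 bases. Of 3596 aligned stretches of 50 bases, the read length, 768 were identical and 509 differed at 1 base. A single read wholly inside an identical stretch, with no mate to place it, maps to both genes, and 1 sequencing error in a stretch that differs at 1 base can assign a read of the abundant copy to the rare one; how many Abcb1b counts this gives was not tested. The stretches printed next, from the GENCODE M21 transcripts, show where reads can and cannot tell the copies apart. The first pair (coding bases 1549 to 1623 of Abcb1a and 1558 to 1632 of Abcb1b) holds the ABC signature motif, by which the family is recognised, in capitals, and has 0 differences.
Abcb1a, shared stretch: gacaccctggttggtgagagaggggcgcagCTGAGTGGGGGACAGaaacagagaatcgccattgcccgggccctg
Abcb1b, shared stretch: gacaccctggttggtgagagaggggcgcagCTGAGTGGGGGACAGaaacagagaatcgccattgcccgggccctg
The second pair (coding bases 1896 to 1970 of Abcb1a and 1905 to 1979 of Abcb1b) is the least alike stretch of 75 aligned bases, with the 28 bases that differ in capitals.
Abcb1a, least alike stretch: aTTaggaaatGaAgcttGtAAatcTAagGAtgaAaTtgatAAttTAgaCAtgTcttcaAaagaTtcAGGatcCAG
Abcb1b, least alike stretch: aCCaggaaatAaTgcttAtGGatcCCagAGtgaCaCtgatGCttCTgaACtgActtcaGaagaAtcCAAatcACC

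Levels per exon length set the order of the 9 genes. Abcg2 averaged 173 ± 27.1 CPM per kb (SD over 30 libraries) and Abcb1a 144 ± 23.8 CPM per kb. Abcc4 followed at 44.4 ± 13.0, Abcc6 at 12.8 ± 4.12, Abcc5 at 4.37 ± 2.08, Abca1 at 2.75 ± 1.24, Abcg1 at 2.03 ± 0.76, Abcc1 at 0.73 ± 0.25 and Abcb1b at 0.22 ± 0.17 CPM per kb. The order was the same when the longest coding transcript replaced the union of exons. The ranges over the libraries overlapped between all neighbours in this order except Abcb1a and Abcc4. Within libraries, Abcg2 lay above Abcb1a in 23 of 30, Abcc6 above Abcc5 in 30, Abcc5 above Abca1 in 25 and Abca1 above Abcg1 in 24. Together Abcg2 and Abcb1a made up 75.4 to 88.0% of the summed level per kb of the 9 genes.

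**Figure D1:**
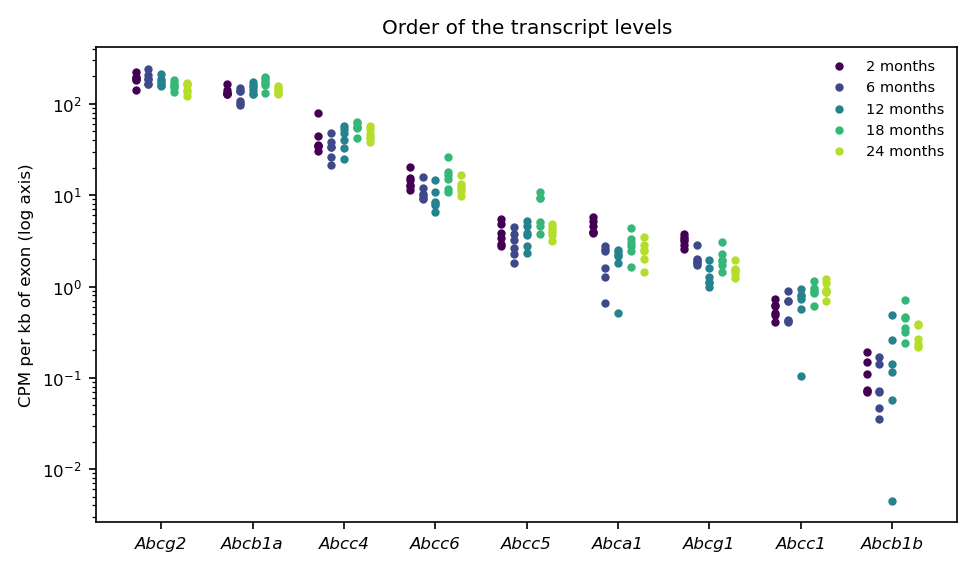
Level of each gene in CPM per kb of exon (log axis) in each of the 30 libraries, with the genes ordered by their mean and the ages as colours from 2 to 24 months. The means run from 173 CPM per kb for Abcg2 to 0.22 for Abcb1b, and the lowest point is the 12-month female library with 1 Abcb1b count.

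The order of the 2 leading pumps was not the same at every age. In order of age, Abcg2 was above Abcb1a per kb in 6, 6, 5, 2 and 4 of the 6 libraries. At 18 months Abcg2 averaged 159 ± 15.8 and Abcb1a 171 ± 24.6 CPM per kb (SD, n = 6 each). This change in order was not tested.

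Over the 5 ages, 4 of the 9 genes had a slope that passed the test (edgeR's quasi-likelihood test, adjusted p under 0.05 over all genes). The percentage called among all 16844 genes was 10.9%. The risers were Abcb1b and Abcc1, and the genes that fell were Abcg2 and Abcg1. The median slope of the 9 genes was 0.24 on the log2 scale over the 22 months, against 0.03 for all genes. In bulk RNA, fewer cells of a type and less RNA per cell cannot be told apart, for these and all results that follow. With the share of reads outside genes as a further covariate, 402 genes passed in all and 1 of the 9, Abcg1 (slope -0.92 ± 0.25, adjusted p = 0.0455). The slopes of the other 3 kept their signs in that fit, with 1.70 for Abcb1b, 0.73 for Abcc1 and -0.28 for Abcg2.

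Abcb1a, the main P-glycoprotein gene of mouse brain capillaries, was high at every age. At 2 months its libraries ranged from 699 to 894 CPM with a median of 721 CPM. Later ages gave 539 to 816 CPM (median 672) at 6 months, 696 to 953 CPM (median 810) at 12 months, 714 to 1091 CPM (median 954) at 18 months and 705 to 853 CPM (median 779) at 24 months. Of the 18-month libraries, 4 of 6 exceeded every 2-month library, and the 3 lowest of all 30 were the females of 6 months at 539 to 586 CPM, which also had the low shares of longer genes given above. Against 2 months, Abcb1a was higher at 18 months by 0.32 ± 0.11 log2 (SE, adjusted p = 0.0445), and this call was lost when any of 10 of the 30 libraries was left out (adjusted p up to 0.117) and without a filter on low counts (adjusted p = 0.0779). Its value at 24 against 2 months was 0.04 ± 0.11 (adjusted p = 0.892). The slope over all ages was 0.24 ± 0.12 (adjusted p = 0.199), and the ages departed from a straight line (adjusted p = 0.0422, and 0.0673 without that filter).

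Abcb1b, the second P-glycoprotein gene, which in mice is better known from adrenal gland, uterus and cultured cells, was low at 2 months. Its counts were 62 to 189 per library at 18 months, against 14 to 46 at 2 months. Levels were 0.562 to 1.55 CPM (median 0.731) at 2 months, 0.280 to 1.35 CPM (median 0.561) at 6 months, 0.036 to 3.92 CPM (median 1.03) at 12 months, 1.92 to 5.65 CPM (median 3.21) at 18 months and 1.76 to 3.14 CPM (median 2.02) at 24 months. All 6 libraries of 18 months and all 6 of 24 months lay above the highest 2-month library. The 12-month libraries spread most, from 1 count in female replicate 5 to 106 counts in female replicate 6. Abcb1b rose with age by 2.04 ± 0.52 log2 over the 22 months (SE, adjusted p = 0.0105). Without 12-month female replicate 5 the slope was 2.03 ± 0.45 (adjusted p = 0.00375). At 18 against 2 months it was higher by 1.89 ± 0.55 (adjusted p = 0.0164), and at 24 against 2 months the value was 1.36 ± 0.54 (adjusted p = 0.129).

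A ratio within each library needs no scaling between libraries and sets the paralogues against each other. It can still differ between single-end and paired-end libraries, because reads without a mate in shared stretches map to both copies. The sources used here do not name the 6 single-end libraries, so library type could not enter the fit. Its part in the ratio was not tested. For every 1000 Abcb1a counts there were 0.746 to 2.21 Abcb1b counts at 2 months (median 0.887) and 0.365 to 1.78 at 6 months (median 0.999). The ratio was 0.046 to 4.12 at 12 months (median 1.34), 2.07 to 5.42 at 18 months (median 3.41) and 2.36 to 3.69 at 24 months (median 2.74). The log2 ratio increased with age by 1.90 ± 0.62 over the 22 months (SE, n = 30, two-sided permutation test within sex, p = 0.0031). Leaving out 1 library at a time gave 1.75 to 2.08. With the reads outside genes as a covariate the slope was 1.61 ± 0.75 (permutation p = 0.0324). Even at 18 months Abcb1b made up 0.250% of the pair's summed level per exon length on average, against 0.082% at 2 months.

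**Figure D2:**
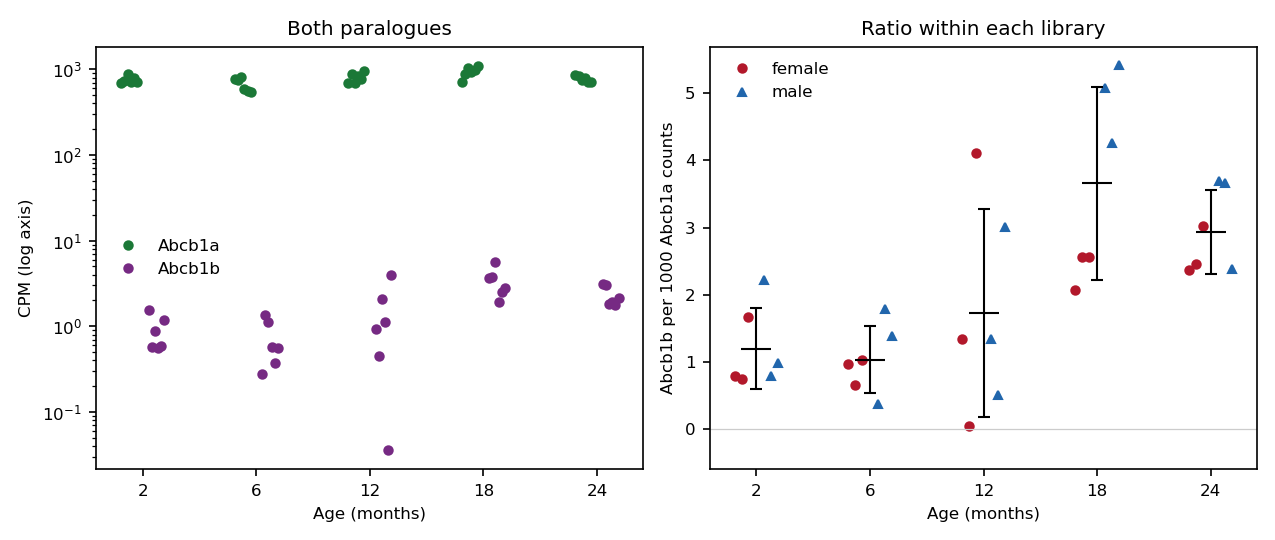
Left, Abcb1a and Abcb1b in CPM (log axis) in each of the 30 libraries by age in months; right, Abcb1b counts per 1000 Abcb1a counts in the same library, with females as circles, males as triangles and black bars for the mean ± SD (n = 6 per age). Abcb1a stays between 539 and 1091 CPM while the median ratio is 3.41 at 18 months, against 0.887 at 2 months.

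Other genes share sequence with the pair. The gene model Gm42686 on the opposite strand covers 10.1% of the exon bases of Abcb1a, and Gm5106 covers 1.79% of those of Abcb1b. Over all libraries 531 counts went to Gm42686 and 41 to Gm5106, against 785818 to Abcb1a and 1791 to Abcb1b, and reads over several genes are left out of all of them. Of 50-base words, 22.5% of those of Abcb1a and 12.8% of those of Abcb1b occur in some other gene. Their neighbour Abcb4, which encodes a phospholipid exporter of liver, averaged 0.491 CPM and had 0 counts in 7 of 30 libraries.

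Abcg2 fell with age. The libraries held 1168 to 1813 CPM (median 1553) at 2 months, 1343 to 1985 CPM (median 1539) at 6 months, 1274 to 1717 CPM (median 1418) at 12 months, 1099.8 to 1475 CPM (median 1298) at 18 months and 985 to 1371 CPM (median 1232) at 24 months. All 6 libraries of 18 months and all 6 of 24 months lay below the 2-month mean of 1530.4 CPM, but the groups overlapped. The slope was -0.38 ± 0.10 log2 over the 22 months (SE, adjusted p = 0.00800), and no departure from a straight line passed the test (adjusted p = 0.819). At 24 against 2 months it was lower by 0.34 ± 0.11 (adjusted p = 0.0472), a call lost when any of 18 of the 30 libraries was left out (adjusted p up to 0.150) and without a filter on low counts (adjusted p = 0.0801).

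Among the Abcc genes, Abcc1 was the lowest and rose with age. It exports glutathione conjugates and leukotriene C4 and sits mainly in cells other than capillary endothelium in the brain, such as choroid plexus epithelium. Its levels were 6.22 to 11.1 CPM (median 8.49) at 2 months, 6.14 to 13.5 CPM (median 8.46) at 6 months, 1.58 to 14.3 CPM (median 11.5) at 12 months, 9.34 to 17.4 CPM (median 13.5) at 18 months and 10.5 to 18.4 CPM (median 13.5) at 24 months. At 18 and at 24 months 5 of 6 libraries exceeded every 2-month library. The slope was 0.83 ± 0.25 log2 (SE, adjusted p = 0.0271). The lowest value, 1.58 CPM, came from 12-month female replicate 5, and without it the slope was 0.82 ± 0.17 (adjusted p = 0.00213). The call was lost without 2-month replicate 2 (adjusted p = 0.0510) or without 24-month replicate 4 (adjusted p = 0.0535).

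Abcc4, which exports cyclic nucleotides, urate and nucleotide drug analogues at the barrier, was the highest of the 4 Abcc genes. Values ran over 196 to 503 CPM (median 223) at 2 months, 137 to 307 CPM (median 214) at 6 months, 159 to 361 CPM (median 281) at 12 months, 269 to 409 CPM (median 354) at 18 months and 246 to 365 CPM (median 292) at 24 months. The 2-month maximum was male replicate 3, and the other 5 libraries of that age lay between 196 and 287 CPM. The slope was 0.39 ± 0.20 log2 (SE, adjusted p = 0.207), and without that library it was 0.61 ± 0.17 and passed (adjusted p = 0.0181).

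Abcc5, another exporter of cyclic nucleotides, was highest in the 3 female libraries of 18 months. The libraries gave 29.6 to 58.4 CPM (median 38.7) at 2 months, 19.3 to 47.7 CPM (median 31.2) at 6 months, 25.0 to 55.3 CPM (median 40.2) at 12 months, 40.5 to 116 CPM (median 76.3) at 18 months and 33.6 to 51.3 CPM (median 43.2) at 24 months. At 18 months the 3 female libraries held 98.3, 100.2 and 116 CPM and the 3 male libraries 40.5, 49.5 and 54.3 CPM. The female libraries also had more counts in longer genes (58.8 to 61.1%, against 55.0 to 57.3% in males). Reads outside genes made up 9.38 to 13.1% in females and 7.99 to 10.4% in males, so these ranges overlapped. The female library with 116 CPM had the 9.38%. Between 2 and 18 months mean Abcc5 went from 36.2 to 105 CPM in females and from 46.7 to 48.1 CPM in males (n = 3 each). A difference between the sexes in this change was not tested. In the fit of both sexes together, Abcc5 was higher at 18 against 2 months by 0.85 ± 0.25 log2 (SE, adjusted p = 0.0157). This call was lost without 2-month replicate 4 (adjusted p = 0.0511). At 24 against 18 months the value was -0.81 ± 0.25 (edgeR, adjusted p = 0.0874). The slope was 0.57 ± 0.28 (adjusted p = 0.192), and -0.11 ± 0.24 with reads outside genes as a covariate.

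Abcc6, whose loss in humans causes the calcifying disease pseudoxanthoma elasticum, had no slope that passed. In order of age its medians were 78.8, 58.5, 47.6, 91.3 and 70.5 CPM, and the 30 libraries lay between 37.2 CPM (12 months) and 150.5 CPM (18 months). At 12 months 5 of 6 libraries lay below every 2-month library. The 12 against 2 months value was -0.62 ± 0.20 log2 (SE, adjusted p = 0.0896 in edgeR), and this comparison passed in DESeq2. The slope was 0.07 ± 0.21 (adjusted p = 0.866), while the departure from a straight line passed (adjusted p = 0.0216).

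**Figure D3:**
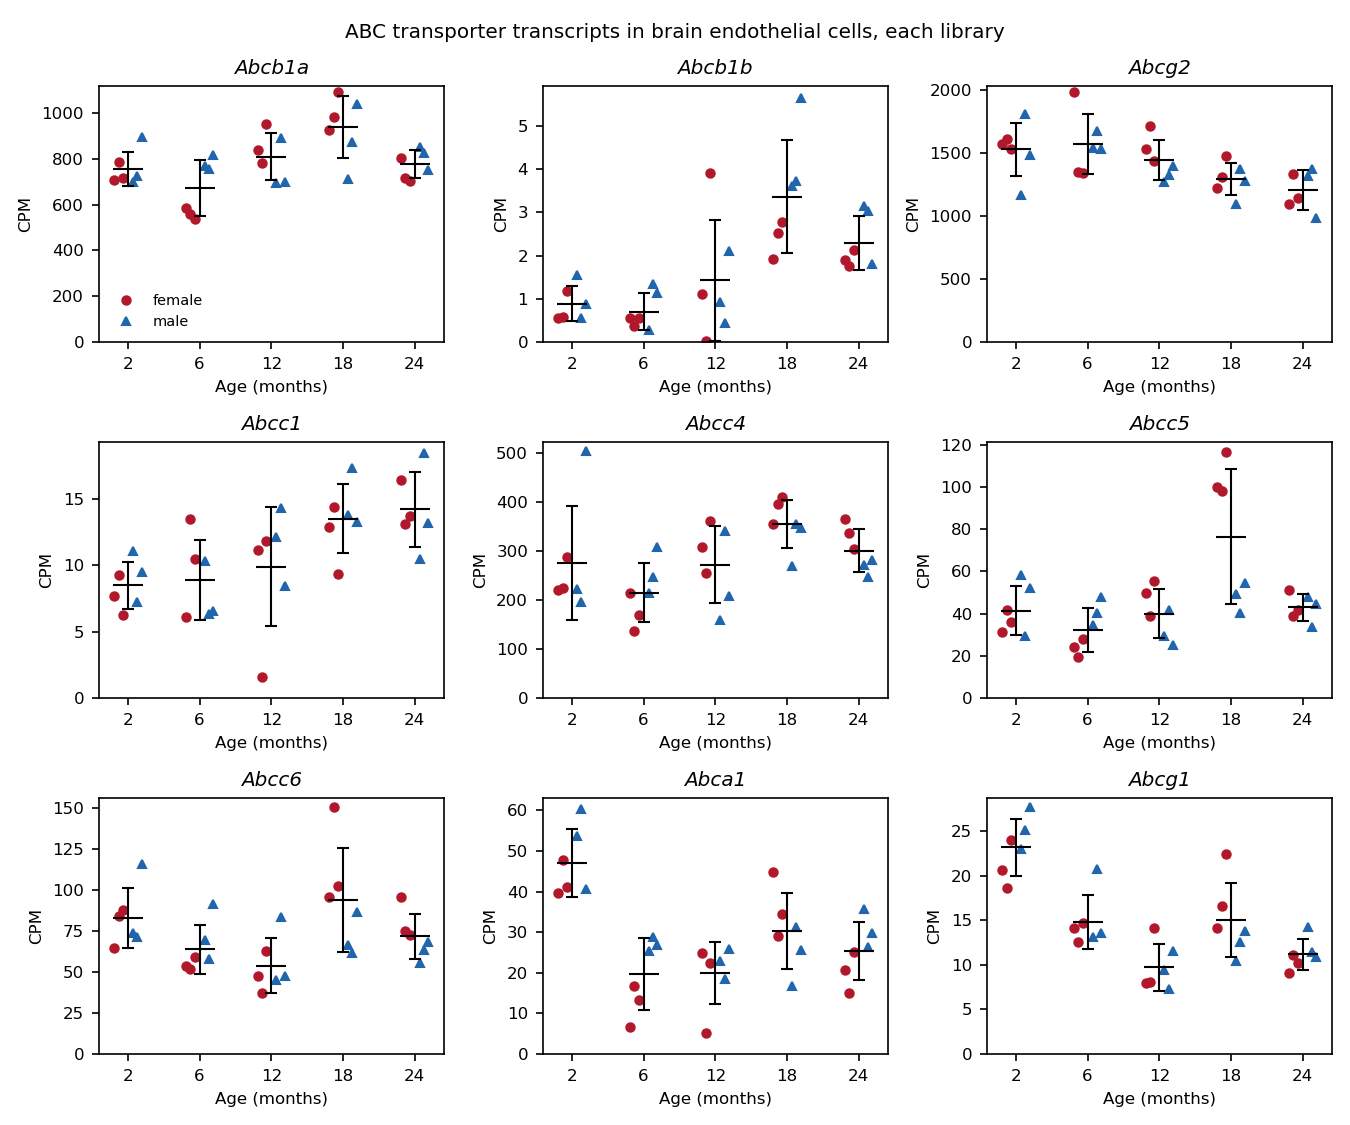
CPM of each of the 9 genes by age in months, 1 point per library (females as circles, males as triangles), with black bars for the mean ± SD (n = 6 per age) and each axis starting at 0. Abca1 and Abcg1 have their highest mean at 2 months, and Abcb1a, Abcb1b, Abcc4, Abcc5 and Abcc6 at 18 months. The 3 female Abcc5 values of 18 months (98.3 to 116 CPM) lie apart. For Abcc6 at 18 months the 3 females (95.8 to 150.5 CPM) also lie above the 3 males (61.8 to 86.8 CPM).

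The sterol exporters Abca1 and Abcg1 were highest at 2 months. Abca1 loads cholesterol on lipid-poor apolipoproteins, and Abcg1 loads it on more mature particles. At 2 months Abca1 libraries held 39.5 to 60.3 CPM (median 44.4). Later libraries held 6.78 to 28.8 CPM (median 21.1) at 6 months, 5.25 to 25.9 CPM (median 22.7) at 12 months, 16.9 to 44.9 CPM (median 30.2) at 18 months and 14.9 to 35.8 CPM (median 25.7) at 24 months. Every library of 6, 12 and 24 months lay below every library of 2 months, and 5 of 6 did so at 18 months. At 6 months females held 6.78 to 16.7 CPM and males 25.5 to 28.8 CPM (n = 3 each). Those females also had the low shares of longer genes given above. At 24 months females held 14.9 to 25.2 CPM and males 26.3 to 35.8 CPM, and at 2, 12 and 18 months the sexes overlapped. Differences between the sexes at single ages were not tested. Against 2 months Abca1 was lower by 1.31 ± 0.29 log2 at 6 months (SE, adjusted p = 0.00596) and by 1.24 ± 0.29 at 12 months (adjusted p = 0.0143). At 18 months the value was -0.58 ± 0.29 (adjusted p = 0.156), and at 24 months it was lower by 0.91 ± 0.29 (adjusted p = 0.0447). The 24-month call was lost when any of 11 of the 30 libraries was left out (adjusted p up to 0.109) and without a filter on low counts (adjusted p = 0.0991). The slope over all ages did not pass (-0.48 ± 0.31, adjusted p = 0.334), and the departure from a straight line did (adjusted p = 0.00757). Without the 2-month libraries the slope was 0.68 ± 0.38 (adjusted p = 0.297).

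Abcg1 had 18.6 to 27.7 CPM at 2 months (median 23.5). At later ages the libraries held 12.5 to 20.7 CPM (median 13.9) at 6 months, 7.27 to 14.1 CPM (median 8.74) at 12 months, 10.5 to 22.4 CPM (median 14.01) at 18 months and 9.06 to 14.3 CPM (median 11.003) at 24 months. All libraries of 12 and of 24 months lay below every 2-month library, as did 5 of 6 at 6 months and 5 of 6 at 18 months. It was the one member lower than at 2 months at each of the 4 later ages by the test: by 0.65 ± 0.18 log2 at 6 months (SE, adjusted p = 0.0213), 1.25 ± 0.18 at 12 months (adjusted p = 5.5e-05), 0.63 ± 0.18 at 18 months (adjusted p = 0.0130) and 1.05 ± 0.18 at 24 months (adjusted p = 0.000162). These comparisons share the 2-month libraries. The 6-month call was lost when any of 3 libraries was left out (adjusted p up to 0.0580). The slope fell by 0.80 ± 0.21 (adjusted p = 0.0117), and without the 2-month libraries it was -0.26 ± 0.27 (adjusted p = 0.602).

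Both sterol exporters are also made by astrocytes and microglia. Summed astrocyte markers reached 479 to 1321 CPM (median 611) at 2 months, 368 to 785 CPM (median 555) at 6 months, 288 to 534 CPM (median 415) at 12 months, 325 to 675 CPM (median 368) at 18 months and 240 to 621 CPM (median 426) at 24 months. For microglia they reached 249 to 1319 CPM (median 311) at 2 months, 195 to 444 CPM (median 294) at 6 months, 174 to 246 CPM (median 209) at 12 months, 177 to 547 CPM (median 236) at 18 months and 219 to 489 CPM (median 347) at 24 months. In order of age, choroid plexus and ependyma markers had median sums of 3063, 1027, 1398, 1004 and 1261.5 CPM. The highest library of each age held 4411, 5427, 7062, 1471.5 and 2311 CPM, and the lowest 953, 406, 796, 167 and 651 CPM. The part of any of these cells in the levels of Abca1 and Abcg1 was not tested.

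**Figure D4:**
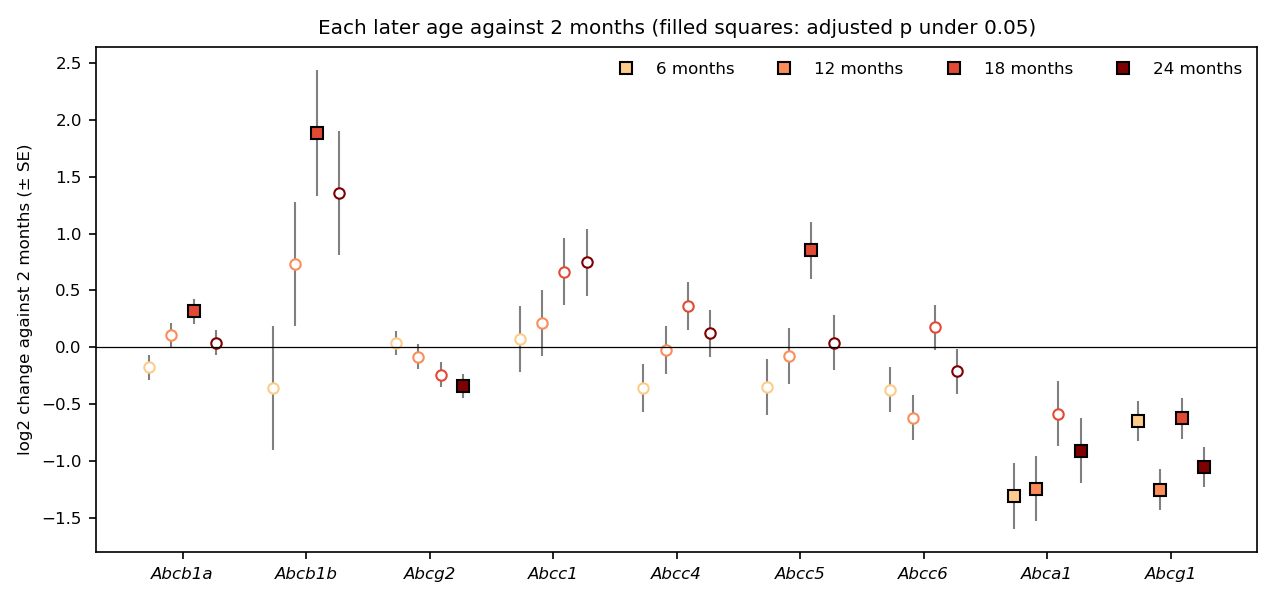
Log2 change of each gene at 6, 12, 18 and 24 months against 2 months (points left to right within a gene), with bars for the SE and filled squares where the adjusted p was under 0.05. Abcg1 is filled at all 4 ages, Abca1 at 6, 12 and 24 months, Abcb1a, Abcb1b and Abcc5 at 18 months alone, and Abcg2 at 24 months alone.

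Transcription of Abca1 and Abcg1 is driven by the liver X receptors (LXR), which sense oxidised cholesterol and, with the retinoid X receptor, bind direct repeats known as DR4 elements. The 250 bases before the RefSeq start of Abca1 (chr4:53159896-53160145, minus strand, GRCm38.p6) are printed because they hold such a repeat. It begins 67 bases before the start and is in capitals, as is a TATA box that begins 29 bases before it.
Abca1 upstream: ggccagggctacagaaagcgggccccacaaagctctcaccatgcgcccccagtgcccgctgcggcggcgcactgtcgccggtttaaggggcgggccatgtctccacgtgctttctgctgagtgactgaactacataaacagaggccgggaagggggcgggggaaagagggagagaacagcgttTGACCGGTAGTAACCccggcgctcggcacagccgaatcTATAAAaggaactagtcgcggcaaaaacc
The letters searched on both strands were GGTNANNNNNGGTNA for the repeat and TATAAA for the TATA box, which do not overlap. Of 32851 upstream windows of this length, 0.621% held the repeat and 12.4% the TATA box. A match is a description of letters, not of binding.

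In a list of 16 LXR receptors and targets other than Abca1 and Abcg1, 2 rose and 3 fell, beside 10.9% of all genes called, and the median slope was -0.15 log2. Apoe, the main lipid carrier of brain, had a mean of 1966 ± 286 CPM at 24 months, against 2386 ± 332 CPM at 2 months (slope -0.46 ± 0.14, adjusted p = 0.0262). Smpdl3a (slope -0.34 ± 0.08) and the phospholipid-remodelling enzyme gene Lpcat3 (-0.32 ± 0.11) fell too. Ch25h, which encodes cholesterol 25-hydroxylase, rose with a slope of 2.59 ± 0.57 log2 (adjusted p = 0.00332) and varied widely, with 15.7 ± 20.3 CPM at 24 months against 2.41 ± 1.82 CPM at 2 months (SD, n = 6 each). The fifth, Abca5, belongs to the ABC family as well. Of 15 genes of sterol uptake, synthesis and sensing, edgeR called 0 on the slope, beside 10.9% of all genes, and DESeq2 called 0. At an unadjusted p under 0.05, 5 passed (2 higher and 3 lower), beside 4348 of all 16844 genes in either direction.

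Of 44 other ABC genes 31 could be tested, and on the slope 4 rose and 0 fell, beside 10.9% of all genes called, with a median slope of 0.25 log2 against 0.03 for all genes. The other 13 had too few counts. DESeq2 called the same 4, and none of the 31 had a negative slope at an unadjusted p under 0.05. Single ages against 2 months gave falls too. At 6 months 3 of 8 in families D, E and F and 1 of 8 in family B were lower (8.76% of all genes called). At 12 months 2 of 8 in family B were lower and 1 of 2 in family G was higher (2.94%). At 18 months 2 of 10 in family A and 1 of 2 in family G were higher (18.8%), and at 24 months 1 in each of these families (8.35%). Abcg3, a rodent relative of Abcg2, averaged 8.71 ± 3.13, 12.9 ± 4.71, 17.6 ± 5.49, 22.6 ± 5.60 and 27.3 ± 8.09 CPM from 2 to 24 months (SD, n = 6 per age; slope 1.54 ± 0.23 log2, adjusted p = 3.52e-05). It kept its call with reads outside genes as a covariate (1.64 ± 0.27, adjusted p = 0.000415) and ran opposite in sign to Abcg2. Abca5, Abca7 and Abcc9 lost theirs there (adjusted p = 0.195, 0.518 and 0.286) and without the 2-month libraries (0.0727, 0.107 and 0.0668). Abcc9 also lost its call with the share of longer genes as a covariate (adjusted p = 0.128) and without the 18-month libraries (0.127). Abca7, a relative of Abca1 linked to Alzheimer's disease risk in humans, averaged 36.6 ± 6.43 CPM at 24 months, against 21.8 ± 6.54 CPM at 2 months (slope 0.998 ± 0.243, adjusted p = 0.00717). Abca5 (slope 1.20 ± 0.28, adjusted p = 0.00510) averaged 15.3 ± 3.83 CPM at 24 months, against 8.52 ± 2.85 CPM at 2 months. Abcc9 (slope 1.06 ± 0.35, adjusted p = 0.0448) encodes a potassium channel subunit rather than a pump and is a pericyte marker, and 4 of 10 pericyte markers rose, Abcc9 among them.

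**Figure D5:**
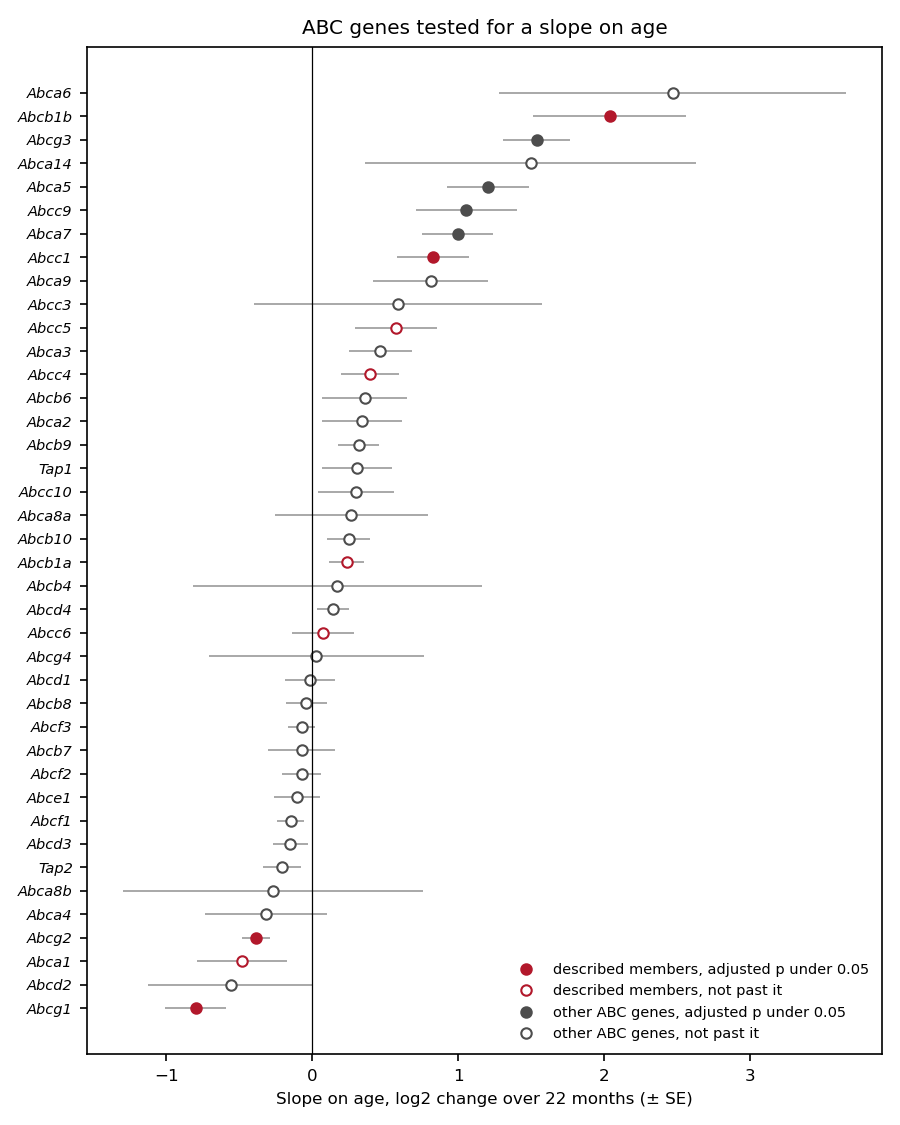
Slope on age of every ABC gene tested, as log2 change over 22 months with bars for the SE, ordered by slope; the 9 genes described are red and the 31 others grey, and filled points had an adjusted p under 0.05. The filled points on the right are Abcb1b, Abcg3, Abca5, Abcc9, Abca7 and Abcc1, and those on the left Abcg2 and Abcg1.

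Genes that act on or with the transporters were counted in the same fit. Among 18 nuclear receptors and other factors that act on efflux genes, 0 rose and 2 fell beside 10.9% of all genes called. The 2 were Trp53 (slope -0.33 ± 0.11) and Nfkb1 (-0.33 ± 0.08). At an unadjusted p under 0.05, 4 were higher and 4 lower, beside 4348 of all 16844 genes in either direction. DESeq2 called 2 as higher. Of 16 genes of phase I and II metabolism and Nrf2 response, 2 rose and 3 fell, beside the same 10.9%. Cyp1b1, which oxidises oestrogens and aromatic hydrocarbons, averaged 46.0 ± 8.16 CPM at 24 months, against 18.7 ± 6.48 CPM at 2 months (SD, n = 6 each; slope 1.59 ± 0.22 log2, adjusted p = 1.15e-05). Srxn1, which repairs oxidised peroxiredoxin, rose (slope 0.52 ± 0.13), and the glutathione transferases Gstm1 (-0.46 ± 0.11), Gstm5 (-0.52 ± 0.16) and Gsta4 (-0.49 ± 0.16) fell.

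Of 11 genes for membrane anchors and trafficking of pumps, 2 fell and 0 rose beside 10.9% of all genes called, and 0 were higher at an unadjusted p under 0.05 or by DESeq2. Rab4a, a GTPase of endosome recycling, averaged 55.4 ± 9.83 CPM at 24 months, against 93.1 ± 12.1 CPM at 2 months (slope -0.80 ± 0.11, adjusted p = 9.15e-06). The scaffold gene Slc9a3r1 had a slope of -0.36 ± 0.09 (adjusted p = 0.00562). Of 9 solute carriers of drug and anion uptake, 2 fell and 0 rose beside that same share (also 0 higher at an unadjusted p under 0.05 and by DESeq2). The nucleoside carrier gene Slc29a1 averaged 67.5 ± 4.22 CPM at 24 months, against 117.5 ± 13.6 CPM at 2 months (slope -0.77 ± 0.11, adjusted p = 3.01e-05), and the thyroxine carrier gene Slco1c1 2261 ± 179 and 2717 ± 186 CPM at those ages (slope -0.32 ± 0.08).

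Set against 2 months age by age, the counts among the 9 genes stand beside the share of all genes called in either direction. At 6 months 0 were higher and 2 lower, Abca1 and Abcg1, where 8.76% of all genes were called. In DESeq2 too 0 of the 9 were higher. The 2 were the only members at an unadjusted p under 0.05, which 4183 of all 16844 genes passed. At 12 months the same 2 were lower, beside 2.94% of all genes. At 18 months 3 were higher (Abcb1a, Abcb1b and Abcc5) and 1 lower (Abcg1), beside 18.8% of all genes. At 24 months 3 were lower (Abcg2, Abca1 and Abcg1), beside 8.35%. From 18 to 24 months edgeR called 0 of the 9 and DESeq2 called 1, Abcc5, beside 1.26% of all genes called by edgeR. In edgeR 3 of the 9 had an unadjusted p under 0.05, beside 2481 of all 16844 genes. Departures from a straight line passed for 5 of the 9 (Abcb1a, Abcc5, Abcc6, Abca1 and Abcg1), beside 17.7% of all genes.

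Sex gave 0 calls among the 9 genes over all ages. The log2 differences (female minus male) ran from -0.40 ± 0.34 for Abcb1b to 0.13 ± 0.16 for Abcc5 (SE, n = 15 each). The nearest to the threshold was Abca1 at -0.36 ± 0.18 (adjusted p = 0.662). Of all genes 0.101% were called. Of the 9 genes 0 passed DESeq2 or an unadjusted p under 0.05, which 1316 of all 16844 genes passed. The interaction of age and sex gave 0% of all genes in edgeR (916 at an unadjusted p under 0.05) and 0 in DESeq2. Of the 9 genes, Abcc4, Abcc5 and Abcc6 had an unadjusted p under 0.05, with slopes higher in females than in males by 0.83 ± 0.37, 1.28 ± 0.52 and 0.88 ± 0.40 log2 (adjusted p = 0.876 for each).

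Across the 30 libraries, which share ages, depth and make-up, the closest pairs among the 9 genes were Abcb1a with Abcc4 (Pearson's r = 0.80 of log2 CPM), Abcb1a with Abcc5 (0.79) and Abcc4 with Abcc5 (0.76). After removal of the mean of each age and sex these values were 0.71, 0.46 and 0.55, and the highest were then Abcc4 with Abcc6 (0.73), Abcc1 with Abca1 (0.71) and Abcb1a with Abcc4. Abcc1 and Abca1 were both lowest in 12-month female replicate 5 (1.58 and 5.25 CPM), and the weight of that library was not tested. Before that removal Abcc1 with Abca1 had r = 0.34. Abcb1a and Abcg2 had r = -0.09, and Abcb1a and Abcb1b 0.46. Without that removal, the genes most like Abcb1a of all tested were the endothelial adhesion receptor gene Adgrf5 (r = 0.92), the tight junction scaffold gene Tjp1 (0.91) and Edem3 (0.90). For Abcc4 they were Lamb2, Grb10 and Fgd5 (0.89, 0.88 and 0.88), for Abcc5 Dennd4c, Wdfy3 and Srgap2 (0.94, 0.91 and 0.90) and for Abcc6 Notch4, Sdc3 and Rapgef1 (0.88, 0.86 and 0.86).

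The other 5 genes had lower highest values, also without that removal. For Abcg2 the nearest were Echdc1, Mob2 and Slc31a2 (r = 0.83, 0.83 and 0.82), for Abcb1b Gpat3, Slfn8 and Phactr2 (0.84, 0.79 and 0.78) and for Abcc1 4430402I18Rik, C130032M10Rik and Kcnmb1 (0.82, 0.81 and 0.80). For Abca1 they were Ncstn, Topors and Pik3r4 (0.77, 0.76 and 0.76), and for Abcg1 Tnfaip1, Carhsp1 and Adgrl3 (0.75, 0.74 and 0.74). After removal of the mean of each age and sex, the 27 values named for the 9 genes ran from 0.12 (Abcg1 with Adgrl3) to 0.96 (Abcc6 with Notch4). Without that removal, Spearman's rank correlation of the 27 pairs ran from 0.47 (Abcc1 with Kcnmb1) to 0.93 (Abcc5 with Dennd4c). It was 0.58 for Abcc1 with 4430402I18Rik, 0.69 for Abcc1 with C130032M10Rik and 0.57 for Abca1 with Topors. The weight of single libraries in Pearson's r was not tested. Abca1 and Abcg1 had r = 0.60 with each other, and 0.22 after removal of the mean of each age and sex.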

How the data were processed

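The authors deposited 1 table of raw read counts per gene and library, not normalized, per the file layout of STAR's gene counter; the column that ignores strand was used. STAR 2.5.2b, HTSeq, FastQC 0.11.4, MultiQC, GRCm38 and mm10 appear in the submitters' processing notes. Per the labels' protocols, cDNA was made with a SMART-Seq kit and libraries by Nextera XT tagmentation, which keep neither strand nor molecular identifiers, so each PCR copy counts. By the same protocols 24 libraries were paired-end and 6 single-end; the sources used here do not name the 6. Lines that name no gene (3.82 to 13.1% of reads outside genes, 8.64 to 13.3% at several places) stayed out of library sizes.

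Gene identifiers were matched to GENCODE M21 without version (48349 of 48795). Genes were kept by filterByExpr (minimum count 10, minimum total 15) and scaled by TMM in edgeR 4.0.16 (R 4.3.3). Robust quasi-likelihood fits over all 16844 genes used sex as a covariate, with Benjamini-Hochberg adjustment at 0.05. Slopes are changes over 22 months. CPM uses TMM-scaled library sizes. The ratio test permuted residuals 100000 times within sex. DESeq2 1.42.0, other filters, scaling, covariates and subsets of libraries were alternatives. The code was tested on simulated data. Upstream sequence is RefSeq's (GRCm38.p6), with an entry for 6 of the 9 genes. All 9 genes are named; list genes are named where they passed the slope test (at most 6 a list), and the 3 genes most like each member by Pearson's r. The members and lists were chosen with earlier results of these data known. P-values measure only the spread between these samples, which the design calls biological replicates.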

Additional observations from a re-analysis of the deposited data

Results flagged for a closer look

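Of 50 groups of 6 libraries checked for a value far from the rest, 3 were found among the 9 genes, and chance gives about 1 in 20 groups. Abcc4 had 503 CPM in 2-month male replicate 3, against 196 to 287 CPM in the other 5 libraries of that age. Abcg1 had 20.7 CPM in 6-month male replicate 2, against 12.5 to 14.7 CPM in the other 5. Abca1 had 5.25 CPM in 12-month female replicate 5, against 18.6 to 25.9 CPM in the other 5, and the same library had 1 count of Abcb1b and 1.58 CPM of Abcc1.

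In 3 comparisons every female library moved one way and every male library the other, relative to the mean CPM of their sex at 2 months. For Abcc4 at 24 against 2 months the log2 ratio of mean CPM was 0.46 in females and -0.21 in males, a difference of 0.67. The male value rests on 2-month male replicate 3: the 3 males of 24 months held 246 to 281 CPM, against 196 and 222 CPM in the other 2 males of 2 months. For Abcc5 at 12 against 2 months it was 0.40 in females and -0.54 in males, a difference of 0.95. For Abcc6 at 18 against 2 months it was 0.56 in females and -0.28 in males, a difference of 0.84. In a check added after the data were seen, each library was compared with the mean of log2 CPM instead. Abcc5 then kept opposite directions in all libraries, while 1 of 3 males lay above that mean for Abcc4 and 1 of 3 for Abcc6. On that scale the male value for Abcc4 was -0.08, and 0.35 without 2-month male replicate 3. These differences at single ages were not tested; the interaction of sex with the slope on age had an adjusted p of 0.876 for each of these genes.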

How the results depend on the processing

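Without a filter on low counts, 967 genes passed at 6 against 2 months, 99 at 24 against 18 months (212 in the fit reported) and 7 for the interaction of age and sex. DESeq2 gave 902 at 12 against 2 months, 718 at 24 against 18 months and 55 for sex. For the slope, 402 genes passed with reads outside genes as a covariate, 886 without the 2-month libraries, 713 without the 18-month libraries, 196 in males alone and 623 in females alone. The members called on the slope then numbered 1 (Abcg1), 1 (Abcg2), 2 (Abcg2 and Abcg1), 0 and 0. Abcb1b and Abcc1 were called in none of these 5 fits. Abcb1b, Abcg2, Abcc1 and Abcg1 kept the signs of their slopes in these 5 fits. In females alone, with 15 libraries, the ratio of Abcb1b to Abcb1a had a slope of 1.72 log2 (permutation p = 0.12). Scaling by RLE, a filter of 1 CPM in 6 libraries, the share of longer genes as a covariate and DESeq2 left 4 members called. Leaving out 1 library at a time gave 1326 to 2036 genes for the slope, 737 to 2184 at 6, 328 to 571 at 12, 2319 to 3396 at 18 and 1039 to 1516 at 24 months against 2 months, 49 to 419 at 24 against 18 months, 3 to 5 members called on the slope and 1.75 to 2.08 for the ratio. Slopes that did not pass changed sign for Abcc4 (-0.036 in males alone), Abcc5 (-0.11 with reads outside genes, -0.029 in males alone), Abcc6 (-0.38 with reads outside genes, -0.24 with longer genes, -0.11 without 18 months, -0.39 in males alone, -0.010 to 0.199 when 1 library was left out, negative without 18-month replicate 5) and Abca1 (0.68 without 2 months); the cause was not tested. Slopes that did not pass also moved in size, in both directions, and those given here are examples. With longer genes and with reads outside genes as covariates they were 0.06 and 0.10 for Abcb1a (0.24 reported) and 0.11 and 0.16 for Abcc4 (0.39). In the same 2 fits Abca1 had -0.75 and -0.72 (-0.48 reported), and with longer genes Abcc5 had 0.09 (0.57). In females alone the slope was 0.82 for Abcc4, 1.27 for Abcc5 and 0.51 for Abcc6 (0.07). Without the 2-month libraries it was 0.64 for Abcc4 and 0.43 for Abcc6. Without the 18-month libraries it was 0.12 for Abcb1a and 0.19 for Abcc5. No paired analysis was possible because the replicate numbers were given in accession order and pair no samples. Abcb1b had 1 to 189 counts per library.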
